A study of Homo sapiens with 30 samples.

Results

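The 41 mitosis genes described here encode proteins that start, drive, watch over and complete cell division, and their transcripts were followed in 5 human breast cancer cell lines treated with bone morphogenetic protein 4 (BMP4). They were fixed by name as a list of cyclins, kinases, motor proteins and centromere proteins, and they are 41 of the 30484 genes named on the array. Where a gene had several probes, the one with the highest mean signal over all 30 arrays was taken, and each of the 41 chosen probes was well above background on 30 of 30 arrays. Each array carried RNA of 1 line at 1 time point, 30 min, 1, 3, 6, 12 or 24 h after treatment, with the BMP4-treated RNA labelled with Cy5 and the RNA of cells given vehicle for the same time labelled with Cy3. All are established lines (ZR-75-30, MDA-MB-361, HCC1954, HCC1419 and SK-BR-3), and the labels give recombinant human BMP4 without a dose. Cells of 3 parallel treatments were pooled before RNA extraction, so a line has 1 pooled value per time point and the lines are the replicates. Dyes were not swapped.

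Entry into mitosis is driven by the kinase CDC2 (now CDK1) bound to B-type cyclins, and transcription of many genes of this phase is switched on late in the cell cycle by a complex that holds FOXM1 and is recruited to short promoter elements. The spindle checkpoint then delays anaphase until every kinetochore is attached, after which the anaphase-promoting complex and its activator CDC20 target securin and cyclins for destruction. Because these transcripts are made mainly in dividing cells, their summed level is widely used as a measure of proliferation in breast tumours. In RNA from a whole culture, fewer cells in division and less transcript per cell cannot be told apart.

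Promoter sequences were available for 33 of the 41 genes in RefSeq (GRCh38.p14), each from 250 bases before to 50 bases after the first listed transcription start. The motif CCAAT, read on both strands (its reverse complement is ATTGG), occurred in 26 of the 33 promoters, or 78.8%, and in 35.7% of all 27305 promoters of the same length. TTTGAA, also read on both strands (reverse complement TTCAAA), occurred in 23 of the 33, or 69.7%, against 15.4% of all promoters, and TTCGAA, its own reverse complement, in 1 of the 33 against 1.45%. CCAAT together with TTTGAA or TTCGAA was found in 20 of the 33, or 60.6%, against 6.58% of all promoters. Overlapping matches were counted, and a match is a string of letters and no measured binding site. Of the 8 genes with the lowest difference between 24 h and 30 min, 7 had a promoter in the set, and 3 of these held CCAAT (TOP2A, BUB1 and KIF23) while 4 did not (PLK4, ANLN, KIF15 and KIF2C). Of the 5 genes at the opposite end 4 had a promoter, and all 4 (HMMR, CCNB2, CKS2 and PTTG1) held CCAAT, as did 26 of the 33. Both ends hold few genes, and whether the motif goes with the difference was not tested. The promoters below show windows of the low end with and without CCAAT, and that of HMMR from the other end. Capitals mark every match on either strand.
TOP2A, chr17:40417847-40418146, minus strand: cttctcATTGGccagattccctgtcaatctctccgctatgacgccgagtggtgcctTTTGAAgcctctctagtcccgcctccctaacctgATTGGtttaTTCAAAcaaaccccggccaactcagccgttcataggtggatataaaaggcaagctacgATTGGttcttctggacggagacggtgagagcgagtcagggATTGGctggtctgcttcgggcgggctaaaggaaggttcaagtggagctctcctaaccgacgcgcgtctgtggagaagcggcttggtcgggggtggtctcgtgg
BUB1, chr2:110678014-110678313, minus strand: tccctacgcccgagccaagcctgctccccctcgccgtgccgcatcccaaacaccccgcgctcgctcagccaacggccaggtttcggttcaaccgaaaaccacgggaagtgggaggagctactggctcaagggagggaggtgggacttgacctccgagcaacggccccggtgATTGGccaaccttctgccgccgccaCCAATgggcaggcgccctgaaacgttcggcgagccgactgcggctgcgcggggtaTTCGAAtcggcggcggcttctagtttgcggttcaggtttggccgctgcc
KIF23, chr15:69414099-69414398, plus strand: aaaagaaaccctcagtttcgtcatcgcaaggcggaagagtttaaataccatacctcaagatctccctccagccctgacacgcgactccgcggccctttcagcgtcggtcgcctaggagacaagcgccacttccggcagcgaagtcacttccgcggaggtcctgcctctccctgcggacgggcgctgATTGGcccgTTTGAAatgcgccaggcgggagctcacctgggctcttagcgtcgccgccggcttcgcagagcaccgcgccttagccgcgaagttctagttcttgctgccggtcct
ANLN, chr7:36389612-36389911, plus strand: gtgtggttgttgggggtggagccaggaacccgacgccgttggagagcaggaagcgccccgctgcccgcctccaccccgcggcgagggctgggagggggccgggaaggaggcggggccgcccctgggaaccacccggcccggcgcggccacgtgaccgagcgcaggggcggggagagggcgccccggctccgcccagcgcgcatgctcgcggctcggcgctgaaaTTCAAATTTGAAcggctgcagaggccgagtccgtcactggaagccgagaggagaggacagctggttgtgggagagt
KIF2C, chr1:44739587-44739886, plus strand: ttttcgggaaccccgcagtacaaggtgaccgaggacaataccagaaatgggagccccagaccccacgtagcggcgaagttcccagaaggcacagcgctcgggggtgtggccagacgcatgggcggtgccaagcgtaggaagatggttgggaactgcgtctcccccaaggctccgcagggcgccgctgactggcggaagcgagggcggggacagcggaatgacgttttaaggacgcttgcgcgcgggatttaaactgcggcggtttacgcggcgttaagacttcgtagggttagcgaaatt
HMMR, chr5:163460382-163460681, plus strand: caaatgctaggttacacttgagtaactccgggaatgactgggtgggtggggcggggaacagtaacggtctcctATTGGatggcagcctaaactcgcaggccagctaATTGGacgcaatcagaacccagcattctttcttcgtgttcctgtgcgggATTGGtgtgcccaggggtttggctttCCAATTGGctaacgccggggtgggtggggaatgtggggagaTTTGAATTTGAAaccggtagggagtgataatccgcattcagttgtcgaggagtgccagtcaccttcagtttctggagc
The TOP2A window held 4 matches to CCAAT and 2 to TTTGAA, the BUB1 window 2 to CCAAT and the 1 match to TTCGAA, and the KIF23 window 1 of each of CCAAT and TTTGAA. The ANLN window held 2 matches to TTTGAA and none to CCAAT. The KIF2C window held none of the 3 motifs, which says only that these letters are not in it. HMMR, whose mean difference between 24 h and 30 min was 0.03, held 5 matches to CCAAT and 2 to TTTGAA.

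All values below are log2 ratios of BMP4 over vehicle, so a value of -1 is a level 2-fold lower with BMP4. Spots well above background made up 58.9% to 70.6% of the 41000 probes in the Cy3 channel. The spread of log ratios over all probes was widest on the arrays of ZR-75-30 at 12 h (SD 0.39), SK-BR-3 at 12 h (0.37) and ZR-75-30 at 1 h (0.35), and counts of calls were repeated without them. On the ZR-75-30 array of 12 h, the 2 brightest detected probes of the same gene lay over 2-fold apart for 12.3% of 3926 genes, against 0.0255% to 5.05% on the other 29 arrays. Of 10 markers of luminal breast epithelium, 8 were well above background on all arrays, among them ERBB2, and CDH1 and ESR1 were not above it in SK-BR-3. In HCC1954 all 4 basal epithelium markers (KRT5, KRT14, KRT17 and TP73L) were well above background on 6 of 6 arrays, with mean log2 Cy3 signals from 13.0 upwards, and the luminal keratin KRT19 was at 11.6 against 17.1 to 17.5 in the other lines. Outside HCC1954, the basal markers above background on 6 of 6 arrays were KRT14 in HCC1419 (12.0), SK-BR-3 (7.7) and ZR-75-30 (7.7), KRT17 in SK-BR-3 (7.7) and ZR-75-30 (8.0), and TP73L in MDA-MB-361 (8.0). Of 4 leukocyte markers 2 (CD3E and CD14) were above background on all arrays and the defining one, PTPRC, on none. Of 5 fibroblast markers none was on all arrays and DCN and LUM were on none. COL1A1 was above background on 6 of 6 arrays of each line but SK-BR-3 (4 of 6), at 8.9 in MDA-MB-361. The response to the ligand was present in all lines, since the median of 7 BMP target genes at 24 h was between 0.52 in ZR-75-30 and 1.38 in MDA-MB-361.

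As a group, the mitosis genes stayed near the vehicle level for the first 6 h in most lines. By the mean of the line medians they were lowest at 24 h, with the size and time of the difference depending on the line. In MDA-MB-361 the median of the 41 genes took the values 0.05, -0.02, -0.03, -0.03, -0.02 and -0.43 from 30 min to 24 h, and 37 of the 41 genes were below 0 at the last time point. The median at 12 h stood for genes on both sides of vehicle, 22 of 41 below 0, from MAD2L1 at -0.78, CENPF at -0.69 and BUB1 at -0.59 to CKS2 at 0.62 and MKI67 at 0.64. Part of the genes were thus already low at 12 h, and 38 of 41 were lower at 24 h than at 12 h. In ZR-75-30 the medians were -0.03, -0.29, -0.07, -0.15, -0.39 and -0.42 in the same order of time, which puts the 2 late arrays at about the same level and the 1 h array between them and the others. SK-BR-3 had medians of 0.00, -0.13, -0.03, 0.13, 0.16 and -0.15, so its genes were slightly above the vehicle level at 6 and 12 h and below it at 24 h, when 38 of 41 were under 0. HCC1419 (-0.10, -0.05, -0.06, -0.03, -0.07 and -0.07) and HCC1954 (0.03, -0.03, -0.06, 0.00, 0.02 and -0.01) stayed within 0.10 of 0 throughout. Over the 5 lines the mean of the medians was -0.01 ± 0.06 (SD, n = 5) at 30 min and -0.10 ± 0.11 (SD, n = 5) at 1 h. It was -0.06 ± 0.20 (SD, n = 5) at 12 h and -0.22 ± 0.20 (SD, n = 5) at 24 h. The median was below 0 in 5 of 5 lines at 1, 3 and 24 h, in 4 at 6 h and in 3 at 30 min and 12 h. The median of probes with signals in the range of these genes stayed between -0.06 and 0.05 on all 30 arrays. The sign in some lines depended on the scaling of the arrays. When each array was scaled by 1 factor and not by loess, the medians of the 41 genes at 24 h were -0.53 in MDA-MB-361, 0.16 in ZR-75-30, -0.47 in SK-BR-3, 0.70 in HCC1419 and 0.15 in HCC1954, while those of probes of like signal were -0.07, 0.42, -0.29, 0.81 and 0.08 in the same order. Relative to probes of like signal, the 41 genes were thus at -0.45, -0.26, -0.19, -0.11 and 0.07, lower in all lines but HCC1954, against -0.42, -0.43, -0.14, -0.11 and -0.02 after loess.

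**Figure D1:**
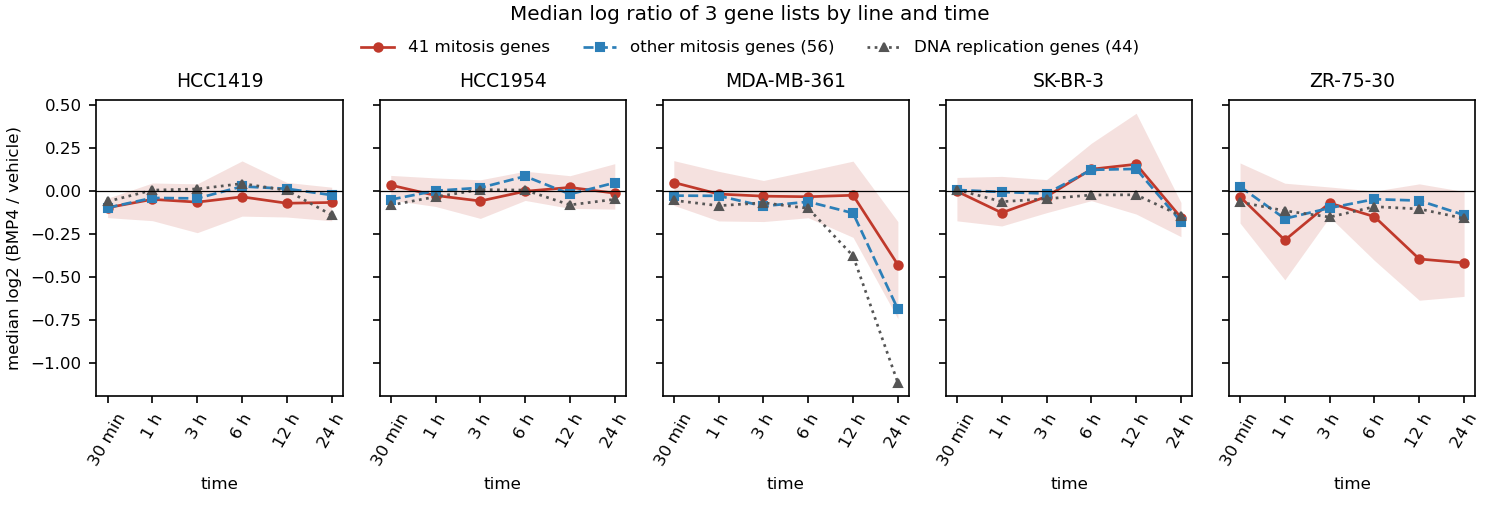
Median log2 ratio of BMP4 over vehicle (vertical axis) by time (horizontal axis) in each of 5 lines for the 41 mitosis genes (red, band from the lower to the upper quartile), 56 other mitosis genes (blue) and 44 DNA replication genes (grey), 1 array per point. After loess the mitosis genes are at -0.43 at 24 h in MDA-MB-361 and at -0.39 and -0.42 at 12 and 24 h in ZR-75-30 (0.16 at 24 h with 1 factor per array), and stay within 0.10 of 0 in HCC1419 and HCC1954.

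The log ratio at each time point was first tested against 0 over the 5 lines with limma, with p-values adjusted over all 41000 probes by the Benjamini-Hochberg method and a call at an adjusted p under 0.05. The error of a gene was 1 estimate shared by the 6 time points, with the arrays of a line taken as independent. An SE given here is thus not the spread of the 5 lines at that time point alone. At 24 h, 38 of the 41 genes had a mean below 0 against 48.4% of all probes, their median was -0.23 against 0.00 over all probes, and 22 had a lower mean with an unadjusted p under 0.05, against 6.70% of all probes. Only KIF2C, a kinesin that takes microtubules apart at kinetochores, was called lower (1 of 41; background 0.52% of all probes). Its values at 24 h were -0.67 in MDA-MB-361, -0.63 in ZR-75-30, -0.26 in SK-BR-3, -0.48 in HCC1419 and 0.00 in HCC1954, so it was at or below 0 in every line, and its mean was -0.41 ± 0.10 (SE, adjusted p = 0.0406). The call was lost when HCC1419, MDA-MB-361, SK-BR-3 or ZR-75-30 was left out and kept without HCC1954. With the cell line as a block, which removes what a line keeps over its 6 arrays, 9 genes were called lower at 24 h (background 1.78%): KIF2C, BUB1, KIF23, CDC20, FOXM1, KIF4A, AURKA, CCNA2 and ESPL1, with means between -0.41 and -0.25. The block takes steady differences between lines out of the error, so these calls hold for these 5 lines only. In this fit the SE of a gene was the same at 1 h as at 24 h, for example 0.106 for BUB1. The error behind these calls is therefore not the spread of the lines at 24 h alone. The share of all probes called lower also rose, from 0.52% to 1.78%. Without the 3 arrays of widest spread, none of which is an array of 24 h, 8 genes were called (background 1.56%). No mitosis gene was called lower by the limma fit without the block at 30 min (background 0.022%), 1 h (0.361%), 3 h (0.0585%), 6 h (0.0366%) or 12 h (0.112%), and the numbers with an unadjusted p under 0.05 and a lower mean were 0, 5, 0, 0 and 4 in that order, against 4.04%, 7.45%, 4.49%, 3.13% and 5.74% of all probes. With the block, and under the same limit, KIF2C was also called at 1 h (-0.37 ± 0.09, SE, adjusted p = 0.0295; background 1.22%).

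Because dyes were not swapped, a bias of a probe for 1 dye stays in those means, whereas it leaves a difference between time points. At 24 h against 30 min, with the line as a block, 37 of the 41 genes were lower and their median difference was -0.19, against 46.4% of all probes lower and a median of 0.01. No mitosis gene was called by limma (background 0.0146%), 13 had an unadjusted p under 0.05 and were lower (2.61% of all probes), and the lowest adjusted p was 0.367 for BIRC5. Under the 18 other settings tried, no mitosis gene was called in this comparison either, between 0 and 19 had an unadjusted p under 0.05, and with 1 factor per array the median was 0.05. Without MDA-MB-361 only 1 gene had an unadjusted p under 0.05 and the median difference was -0.10. Values at 30 min ran from -0.67 to 0.70 over the 41 genes and 5 lines, and those at 24 h from -1.58 to 0.73.

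**Figure D2:**
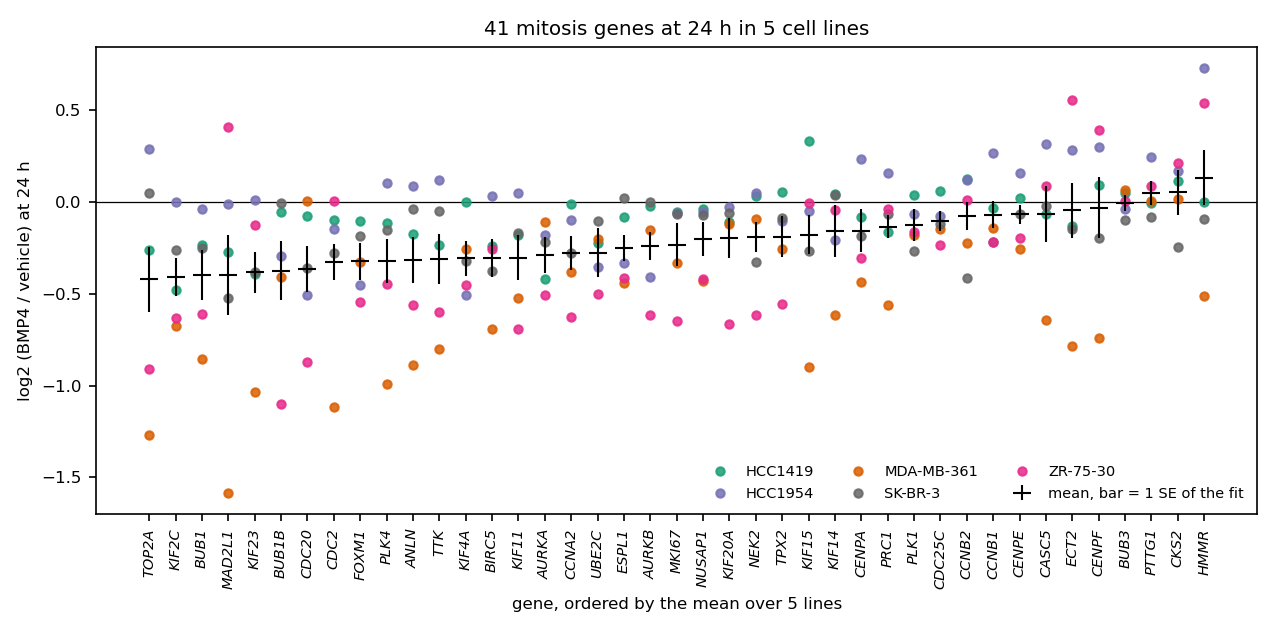
Log2 ratio of BMP4 over vehicle at 24 h (vertical axis) for the 41 mitosis genes, ordered by their mean over 5 lines (horizontal axis), with 1 coloured point per line and a black bar for the mean ± 1 SE of the fit. The lowest points belong to MDA-MB-361 (MAD2L1 at -1.58, TOP2A at -1.27) and ZR-75-30 (BUB1B at -1.10), and KIF2C is at or below 0 in all lines.

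Among the cyclins, CDC2 and their regulators, 6 of 7 had a mean below 0 at 24 h and the group's median was -0.10. Cyclin A2 (CCNA2), which acts from S phase into early mitosis, had 24 h values of -0.38 in MDA-MB-361, -0.63 in ZR-75-30, -0.28 in SK-BR-3, -0.01 in HCC1419 and -0.10 in HCC1954, the same sign in all lines. Its mean of -0.28 ± 0.09 (SE) had an adjusted p of 0.143. CDC2, the mitotic kinase itself, was at -1.12 in MDA-MB-361, 0.00 in ZR-75-30, -0.28 in SK-BR-3, -0.10 in HCC1419 and -0.15 in HCC1954. Its low mean thus rested on MDA-MB-361, and without that line its difference between 24 h and 30 min changed sign, from -0.17 to 0.05. FOXM1, a transcription factor of mitotic genes, was below 0 in all lines with values of -0.33 in MDA-MB-361, -0.55 in ZR-75-30, -0.18 in SK-BR-3, -0.11 in HCC1419 and -0.45 in HCC1954. CCNB1, the main mitotic cyclin, was close to 0, at -0.14 in MDA-MB-361, -0.22 in ZR-75-30, -0.22 in SK-BR-3, -0.04 in HCC1419 and 0.27 in HCC1954, with HCC1954 above and the other lines below. The partner cyclin CCNB2 (-0.23 in MDA-MB-361, 0.01 in ZR-75-30, -0.41 in SK-BR-3, 0.13 in HCC1419 and 0.12 in HCC1954) and the small CDK-binding protein CKS2 (0.02 in MDA-MB-361, 0.21 in ZR-75-30, -0.25 in SK-BR-3, 0.11 in HCC1419 and 0.17 in HCC1954) lay on both sides of 0 and were among the 5 genes that were not lower at 24 h than at 30 min or differed least.

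All 5 mitotic kinases had a mean below 0 at 24 h, with a median of -0.24, and 4 had an unadjusted p under 0.05. PLK4, which starts the duplication of centrioles, had values of -0.99 in MDA-MB-361, -0.45 in ZR-75-30, -0.15 in SK-BR-3, -0.12 in HCC1419 and 0.10 in HCC1954. The lowest pair was that of ZR-75-30 and MDA-MB-361. Its difference between 24 h and 30 min was -0.41 ± 0.14 (SE, limma adjusted p = 0.440) and was negative in 4 of 5 lines. A dimmer PLK4 probe, detected on 30 of 30 arrays, was at -0.51, -0.31, -0.03, -0.06 and 0.17 at 24 h in the same order of lines. Its mean was -0.15, against -0.32 by the brightest probe. AURKB, the catalytic subunit of the chromosomal passenger complex, was at -0.15 in MDA-MB-361, -0.62 in ZR-75-30, 0.00 in SK-BR-3, -0.02 in HCC1419 and -0.41 in HCC1954, lower than at 30 min in 5 of 5 lines. PLK1, which acts from entry into mitosis to cytokinesis, had values of -0.18 in MDA-MB-361, -0.16 in ZR-75-30, -0.27 in SK-BR-3, 0.04 in HCC1419 and -0.06 in HCC1954 by its brightest probe. A second PLK1 probe, detected on 30 of 30 arrays, was at 0.15, -0.81, -0.02, -0.01 and -0.31 in the same order, so the values in ZR-75-30 and MDA-MB-361 differed between the probes. AURKA, a kinase of the spindle poles that was picked out after its values were seen, was below 0 in all lines (-0.11 in MDA-MB-361, -0.50 in ZR-75-30, -0.22 in SK-BR-3, -0.42 in HCC1419 and -0.18 in HCC1954) and was called at 24 h with the line block (-0.29 ± 0.06, SE, limma adjusted p = 0.0094). It was below 0 at 30 min in 4 of 5 lines as well, lowest in SK-BR-3 at -0.49, and its difference between 24 h and 30 min was -0.12 ± 0.09 (SE, adjusted p = 0.838).

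The 6 spindle checkpoint genes had a median of -0.34 over the gene means at 24 h, the lowest of the 8 role groups, whereas by the mean of the line medians the kinesins were lowest (-0.29, with the checkpoint genes at -0.25). BUB1, a checkpoint kinase at kinetochores, had values of -0.86 in MDA-MB-361, -0.61 in ZR-75-30, -0.25 in SK-BR-3, -0.23 in HCC1419 and -0.04 in HCC1954. It was below its 30 min value in 5 of 5 lines, with a mean difference of -0.40 ± 0.15 (SE), with a limma adjusted p of 0.534. BUB1B, which encodes the checkpoint protein BubR1, was at -0.41 in MDA-MB-361, -1.10 in ZR-75-30, -0.01 in SK-BR-3, -0.06 in HCC1419 and -0.30 in HCC1954, so that ZR-75-30 stood far below the rest. MAD2L1, which holds back CDC20 and was picked out after its values were seen, was at -1.58 in MDA-MB-361, 0.41 in ZR-75-30, -0.52 in SK-BR-3, -0.27 in HCC1419 and -0.01 in HCC1954. Those values span both the lowest of all 41 genes at 24 h and one well above 0, and at 12 h its SK-BR-3 value was 1.12, the only value of these genes at least 2-fold above vehicle on any array. CASC5 (now KNL1), the kinetochore scaffold that recruits BUB proteins, was the highest of the 41 in the difference between 24 h and 30 min (0.12 ± 0.22, SE), with 24 h values of -0.64 in MDA-MB-361, 0.09 in ZR-75-30, -0.02 in SK-BR-3, -0.07 in HCC1419 and 0.32 in HCC1954. BUB3, the partner of BUB1 and BubR1, stayed at vehicle level by its brightest probe, with values from -0.10 to 0.07 at 24 h. Its other probes were lower in MDA-MB-361, and their values are given further on.

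In the group of anaphase promotion and sister separation, 3 of 4 genes had a mean below 0 at 24 h. CDC20, the activator of the anaphase-promoting complex, had values of 0.00 in MDA-MB-361, -0.87 in ZR-75-30, -0.36 in SK-BR-3, -0.08 in HCC1419 and -0.51 in HCC1954. It was thus level with vehicle in MDA-MB-361 and lowest in ZR-75-30, the reverse of MAD2L1. PTTG1, which encodes securin, was among the 5 genes with the highest difference and lay near 0 in 4 lines (0.00 in MDA-MB-361, 0.09 in ZR-75-30, -0.08 in SK-BR-3, 0.00 in HCC1419 and 0.25 in HCC1954). Separase (ESPL1) and the ubiquitin-conjugating enzyme UBE2C had means of -0.25 and -0.28.

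All 7 kinesins had a mean below 0 at 24 h, with a median of -0.30, and 4 had an unadjusted p under 0.05. KIF23, a motor of the central spindle, was at -1.04 in MDA-MB-361, -0.12 in ZR-75-30, -0.38 in SK-BR-3, -0.39 in HCC1419 and 0.01 in HCC1954. KIF11, which pushes spindle poles apart, was at -0.52 in MDA-MB-361, -0.69 in ZR-75-30, -0.17 in SK-BR-3, -0.18 in HCC1419 and 0.05 in HCC1954 by its brighter probe. The other KIF11 probe, detected on 30 of 30 arrays, was at -0.91, -0.10, -0.30, -0.05 and 0.02 in the same order. KIF15, which also pushes spindle poles apart, was at -0.90 in MDA-MB-361, 0.00 in ZR-75-30, -0.27 in SK-BR-3, 0.33 in HCC1419 and -0.05 in HCC1954, lowest in MDA-MB-361 and above 0 in HCC1419. Its difference between 24 h and 30 min was -0.31 ± 0.14 (SE, limma adjusted p = 0.687).

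Means of the 3 centromere and kinetochore genes were close to 0 at 24 h, with a median of -0.07. CENPA, the histone variant that marks centromeres, was at -0.44 in MDA-MB-361, -0.31 in ZR-75-30, -0.18 in SK-BR-3, -0.08 in HCC1419 and 0.23 in HCC1954. CENPF, picked out after its values were seen, was at -0.74 in MDA-MB-361, 0.39 in ZR-75-30, -0.20 in SK-BR-3, 0.09 in HCC1419 and 0.30 in HCC1954, by its brightest probe, with a mean of -0.03. Its other probe, also detected on 30 of 30 arrays, was at -0.45, -0.49, -0.15, 0.05 and 0.00 in the same order, with a mean of -0.21.

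Of the 6 spindle and chromosome genes, 5 had a mean below 0 at 24 h. TOP2A, the topoisomerase that untangles sister chromatids, had the largest difference between 24 h and 30 min of the 41 (-0.44 ± 0.21, SE, limma adjusted p = 0.692). Its 24 h values were -1.27 in MDA-MB-361, -0.91 in ZR-75-30, 0.05 in SK-BR-3, -0.26 in HCC1419 and 0.29 in HCC1954, so the low mean came mostly from 2 lines, and HCC1954 and SK-BR-3 were above 0. BIRC5, which encodes survivin of the chromosomal passenger complex, had 24 h values of -0.69 in MDA-MB-361, -0.25 in ZR-75-30, -0.37 in SK-BR-3, -0.24 in HCC1419 and 0.03 in HCC1954. Its difference from 30 min, -0.42 ± 0.13 (SE), was negative in 5 of 5 lines and largest in SK-BR-3, where the 30 min value was 0.70. MKI67, the gene of the Ki-67 antigen used to score proliferation, was at -0.33 in MDA-MB-361, -0.65 in ZR-75-30, -0.07 in SK-BR-3, -0.05 in HCC1419 and -0.06 in HCC1954, below 0 and below its 30 min value in all lines. HMMR, a spindle protein, was the highest of the 41 genes at 24 h on average (0.13 ± 0.15, SE), at -0.51 in MDA-MB-361, 0.54 in ZR-75-30, -0.09 in SK-BR-3, 0.00 in HCC1419 and 0.73 in HCC1954.

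The 3 cytokinesis genes were ANLN, PRC1 and ECT2. ANLN, which encodes the contractile ring protein anillin, had 24 h values of -0.89 in MDA-MB-361, -0.56 in ZR-75-30, -0.04 in SK-BR-3, -0.17 in HCC1419 and 0.08 in HCC1954. It was below its 30 min value in 5 of 5 lines, by -0.39 ± 0.15 (SE, limma adjusted p = 0.540). ECT2, the activator of RhoA at the cleavage furrow, was picked out after its values were seen and was at -0.79 in MDA-MB-361, 0.56 in ZR-75-30, -0.15 in SK-BR-3, -0.13 in HCC1419 and 0.28 in HCC1954. The first pair of lines thus lay on opposite sides of vehicle, and the values of its other probes are given further on.

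**Figure D3:**
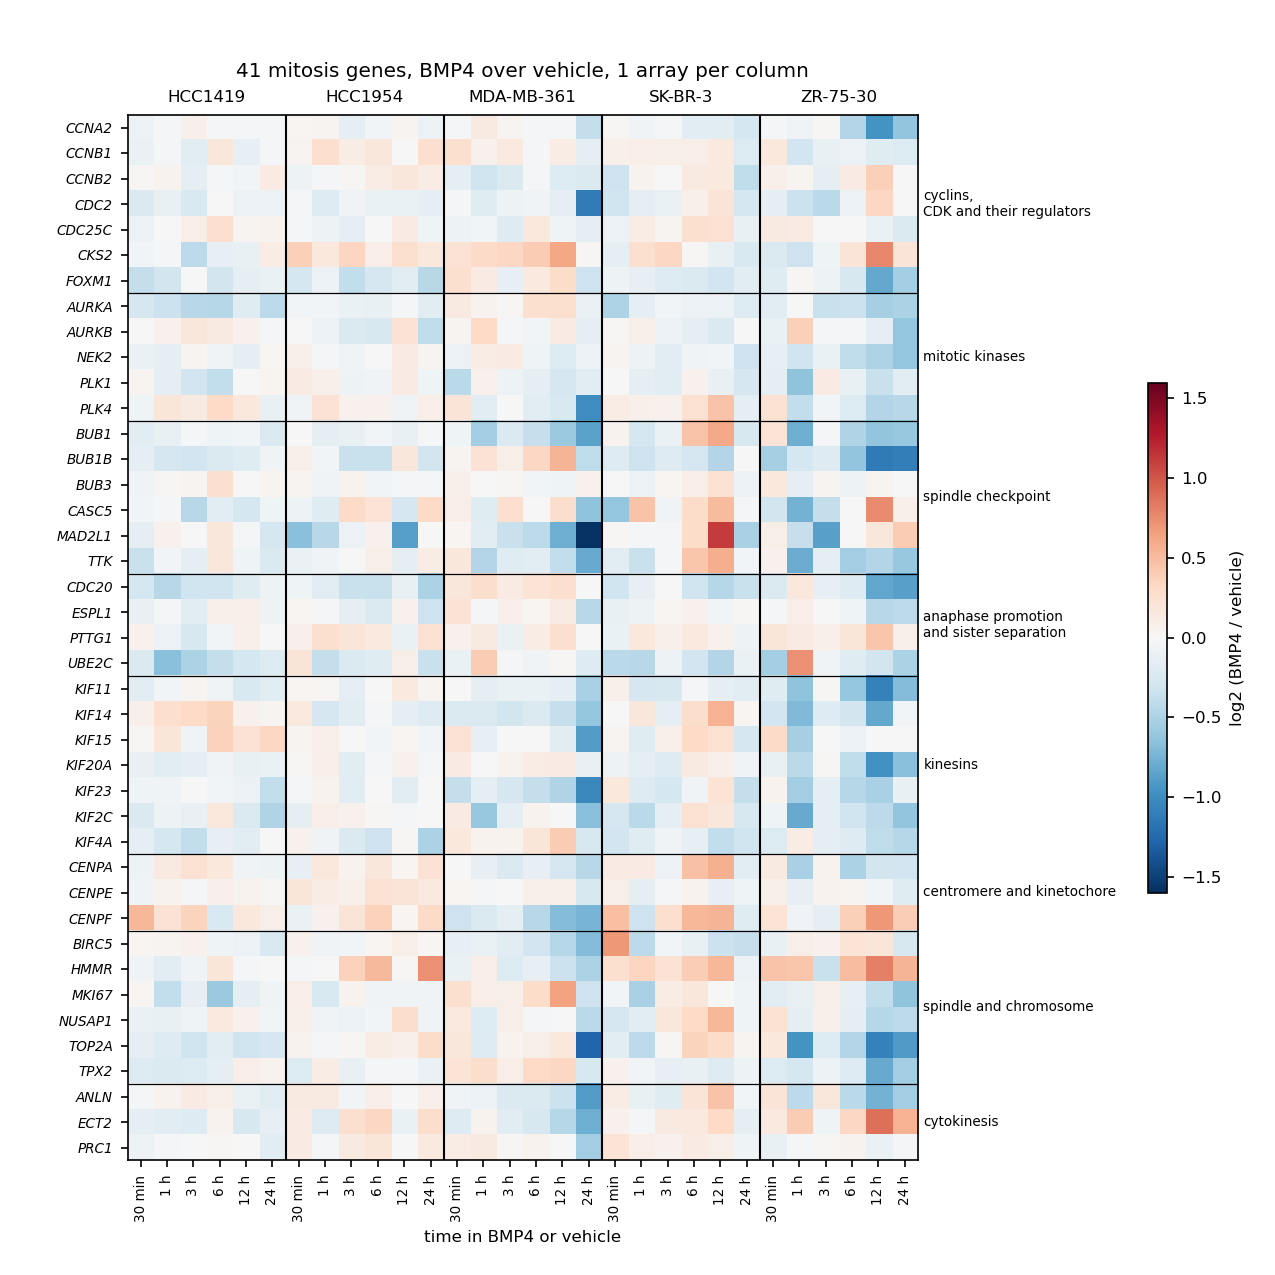
Log2 ratio of BMP4 over vehicle (colour) of the 41 mitosis genes (rows, grouped by role) on the 30 arrays (columns, grouped by line and ordered by time). Blue cells gather at 24 h in MDA-MB-361, where MAD2L1 is at -1.58, and at 12 and 24 h in ZR-75-30, and most cells of HCC1419 and HCC1954 are pale.

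To give the size of the change within each line, the 2 late arrays (12 and 24 h) were set against the 2 early ones (30 min and 1 h) of the same line in 1 limma fit, in which neighbouring time points stand in for replicates. The error of a gene was 1 estimate shared by all 5 lines, so the SE and p-value for a line do not measure the spread in that line alone. Of the 3 arrays of widest spread, those of 1 h and 12 h in ZR-75-30 enter its comparison. In ZR-75-30, 5 genes were called lower (background 2.07% of all probes): CDC20 (-0.83 ± 0.14, SE, adjusted p = 0.00363), CCNA2 (-0.75 ± 0.14, adjusted p = 0.00537), FOXM1 (-0.59 ± 0.16), KIF20A (-0.54 ± 0.14) and AURKA (-0.43 ± 0.12). CKS2 was called higher (0.77 ± 0.20, adjusted p = 0.0270; background 4.11%). CDC20 had values of -0.23 and 0.17 on the early arrays of this line and -0.83 and -0.87 on the late ones. CCNA2 had -0.03 and -0.05 against -0.95 and -0.63. These are the values behind the calls and no further evidence for them. BUB1B, the third lowest at -0.71 ± 0.23 (SE), was not called (adjusted p = 0.0693), and its early values of -0.53 and -0.29 were already below vehicle. These calls depended on single arrays of ZR-75-30. Without the 1 h arrays only CCNA2 was called (background 1.11%), without the 12 h arrays CDC20 and AURKB (0.476%), without the 24 h arrays 7 genes (2.06%), and without the 3 arrays of widest spread none (0.21%). Each of these fits leaves 1 array on one or both sides, which is assumed to vary like the pairs of arrays that remain.

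In MDA-MB-361, 38 of the 41 genes were lower late than early, with a median of -0.21, but none was called (background 0.171%) and 8 had a lower late level with an unadjusted p under 0.05 (4.37% of all probes). The late pair was unlike in this line, with medians of -0.02 and -0.43 and an r of 0.58 across the genes. Without the arrays of 12 h the late side of this line is the single 24 h array, assumed to vary like the pairs of arrays that remain, and on that footing 3 genes were called lower (background 0.622%): MAD2L1 (-1.51 ± 0.28, SE, adjusted p = 0.0208), CDC2 (-1.01 ± 0.16, adjusted p = 0.00748) and PRC1, which bundles microtubules of the central spindle (-0.69 ± 0.09, adjusted p = 0.00212). No gene was called lower in HCC1419 (background 0.0317%), HCC1954 (0%) or SK-BR-3 (0.039%), where 0, 0 and 1 had an unadjusted p under 0.05 and a lower late level, against 331, 532 and 1855 of about 41000 probes. In SK-BR-3 without the 1 h arrays, where the early side is the single 30 min array, BIRC5 was called lower (-1.06 ± 0.16, SE, adjusted p = 0.0170; background 0.061%). That call rested on the 30 min value of 0.70, and its value at 1 h was -0.41. Whether the change differed between lines was tested by an F test over the 5 lines, which called none of the 41 genes (background 0.171%). CDC20 came closest, with a range of 1.06 between the lines' differences and an adjusted p of 0.101, and 9 genes had an unadjusted p under 0.05, against 11.6% of all probes. The differences between lines described here are therefore differences between single arrays and were not shown by this test.

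The lowest genes at 24 h were compared between MDA-MB-361 and ZR-75-30. Of the 10 lowest genes in each line by the chosen probes TOP2A was shared, where other pairs of lines shared 1 to 5, and across the 41 genes the values of the 2 lines had a Pearson r of -0.18 and a Spearman rho of -0.11. Genes are not independent replicates, and this is a description of 2 arrays. In MDA-MB-361 the lowest were MAD2L1 (-1.58), TOP2A (-1.27), CDC2 (-1.12) and KIF23 (-1.04), the only 4 at least 2-fold below vehicle on this array. In ZR-75-30 they were BUB1B (-1.10), TOP2A (-0.91), CDC20 (-0.87) and KIF11 (-0.69). The place of KIF11 depended on the probe, since its other probe was at -0.10 there. CDC20, CDC2 and MAD2L1 differed in order between the lines. CDC20 was at 0.00 in MDA-MB-361 and -0.87 in ZR-75-30, whereas CDC2 was at -1.12 and 0.00 and MAD2L1 at -1.58 and 0.41. HCC1419 resembled MDA-MB-361 more (r = 0.38) than ZR-75-30 (r = 0.29), and HCC1954 had an r of 0.54 with ZR-75-30 and of -0.24 with MDA-MB-361. Within ZR-75-30 the 12 and 24 h arrays had an r of 0.87, the first being the array of widest spread, and in MDA-MB-361 less so (r = 0.58). The vehicle and BMP4 RNA of each array are shared by all genes on it, so such correlations carry what the array carries.

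**Figure D4:**
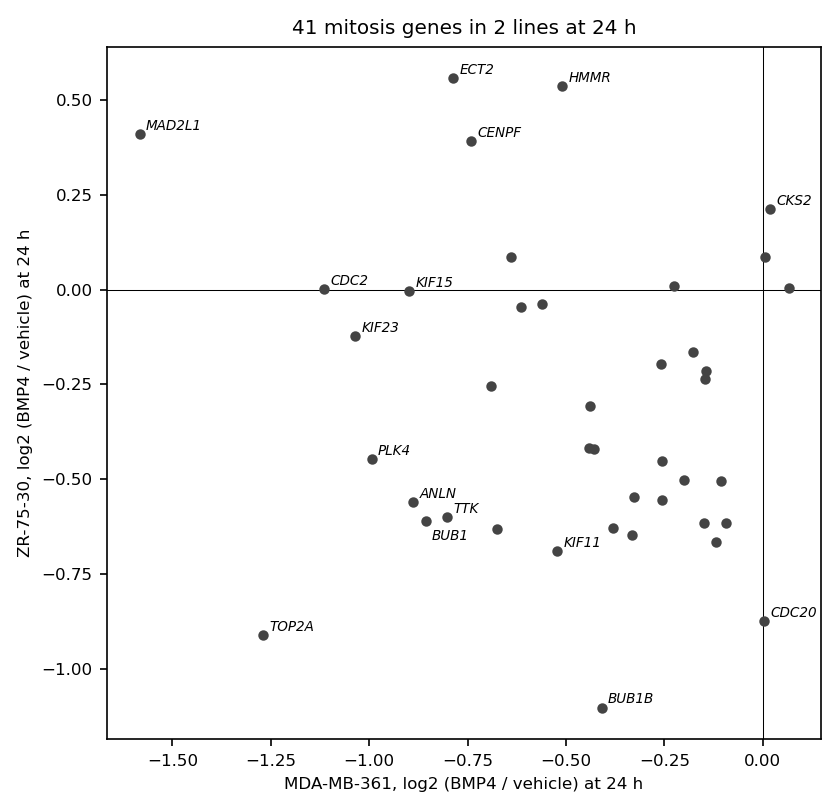
Log2 ratio of BMP4 over vehicle at 24 h in MDA-MB-361 (horizontal axis) and ZR-75-30 (vertical axis), 1 point per mitosis gene. TOP2A is low in both lines, whereas MAD2L1 and CDC2 are low in MDA-MB-361 alone and BUB1B and CDC20 lie lower in ZR-75-30 (r = -0.18 across 41 genes). ECT2 is plotted by its brightest probe (0.56 in ZR-75-30), and its other probes were at -0.71 and -0.73 there.

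Several genes departed upwards from the group in ZR-75-30. At 12 h ECT2 was at 0.88, HMMR at 0.81, CKS2 at 0.77, CASC5 at 0.76 and CENPF at 0.70, while the median of the 41 genes was -0.39. On the 24 h array, which is not among the 3 of widest spread, the same genes were at 0.56, 0.54, 0.21, 0.09 and 0.39. For 3 of these genes other probes gave a different picture. ECT2 has 3 detected probes on chromosome 3 (hg18), and the brightest, at 174021821-174021880, was at 0.16, 0.41, -0.07, 0.34, 0.88 and 0.56 from 30 min to 24 h. The probe at 174021024-174021083 was at -1.16 at 12 h and -0.71 at 24 h, and the one at 174003118-174003177 at -1.10 and -0.73. The same 3 probes lay close together in MDA-MB-361 at 24 h, at -0.79, -0.89 and -0.88. CENPF was at 0.70 by its brightest probe and at -0.65 by the other at 12 h in ZR-75-30, and CASC5 at 0.76 against -0.05 and -0.36 by dimmer probes. KIF11 showed the opposite, with -1.09 by the brighter probe and -0.12 by the other, although in MDA-MB-361 at 24 h the values were -0.52 and -0.91. HMMR and CKS2 had a single probe each.

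In all, 8 of the 41 genes had 12 further probes well above background on at least 17 arrays, and at 24 h the mean over 5 lines had the same sign as the chosen probe in 11 of 12. A shared sign says little where the chosen mean was near 0, as for BUB3 (-0.004), CENPF (-0.03) and ECT2 (-0.045). Over the arrays, the r with the chosen probe was -0.20 and -0.11 for the other ECT2 probes and -0.01 for that of CENPF. For the remaining further probes it ran from 0.13 (PLK1) to 0.81 (PLK4). BUB3, level with vehicle by its brightest probe in MDA-MB-361 at 24 h (0.07), was at -0.34, -0.57 and -0.29 by its other probes there. The sign for ECT2 and CENPF at 12 and 24 h in ZR-75-30 and for CASC5 at 12 h there thus depended on the probe. So did the sign for BUB3 and PLK1 at 24 h in MDA-MB-361, and the size for KIF11, BUB3, PLK1 and PLK4. The size for NEK2 at 24 h in MDA-MB-361 did as well (-0.09 by the brightest probe and -0.35 by the other). With the mean over all probes of a gene in place of the brightest, the count of called genes at 24 h stayed at 1 and that in ZR-75-30 at 5. Among the 41 chosen probes, brighter ones tended to be higher on the ZR-75-30 arrays of 6, 12 and 24 h (Spearman rho across genes 0.40, 0.39 and 0.39), and in MDA-MB-361 at 24 h this was 0.09. Its part in the result was not tested.

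**Figure D5:**
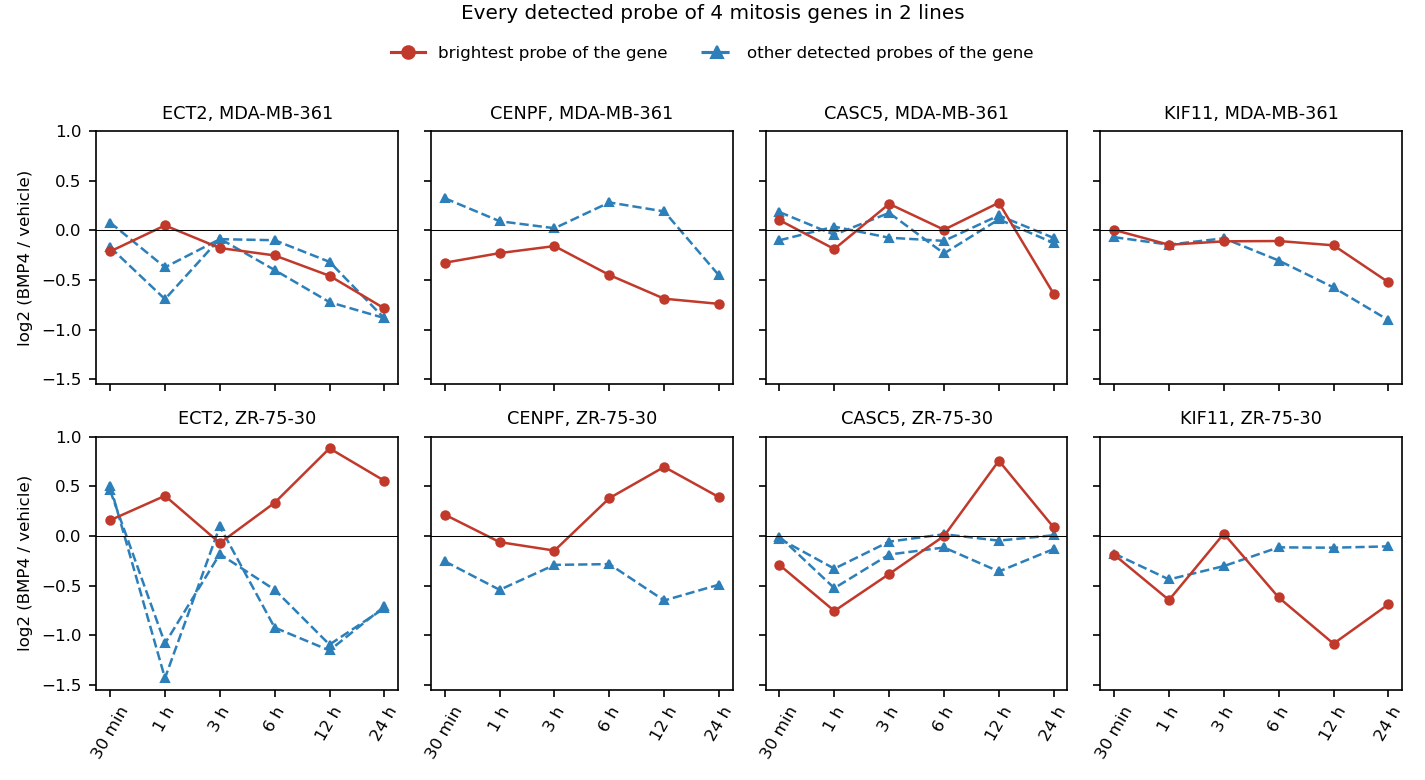
Log2 ratio of BMP4 over vehicle (vertical axis) by time (horizontal axis) for every detected probe of ECT2, CENPF, CASC5 and KIF11 in MDA-MB-361 (upper row) and ZR-75-30 (lower row), the brightest probe in red and others in blue. In ZR-75-30 at 12 h the ECT2 probes lie at 0.88, -1.16 and -1.10, while in MDA-MB-361 at 24 h they lie between -0.89 and -0.79.

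Arrays of 1 line were spread over 2 or 3 slides, so the 24 h array was also set against the nearest earlier array of the same slide. On this measure the median difference was -0.36 in MDA-MB-361 (from 12 h, 38 of 41 genes lower), -0.28 in SK-BR-3 (from 12 h, 32 lower), -0.13 in ZR-75-30 (from 6 h, 29 lower), -0.01 in HCC1954 (from 6 h, 24 lower) and 0.01 in HCC1419 (from 12 h, 20 lower). Probes of like signal had medians of -0.03, -0.07, 0.06, -0.004 and 0.06 in the same order. Of those probes 54.8%, 56.9%, 41.8%, 51.5% and 37.4% were lower. TOP2A differed most in MDA-MB-361 (-1.44) and MAD2L1 in SK-BR-3 (-1.64). The SK-BR-3 array of 12 h is one of the 3 of widest spread, and against the 6 h array of the same slide the median was -0.26, with 36 of 41 genes lower and MAD2L1 at -0.82. The difference in MDA-MB-361 was thus seen within 1 slide. The channels were also read singly on the same pairs of arrays. For this, the average signals of the 2 channels were given the same distribution over probes on all arrays, and the loess ratios were kept. In MDA-MB-361 the median of the 41 genes from 12 to 24 h differed by -0.44 in vehicle and by -0.92 in BMP4, so the level was lower at 24 h in both cultures and more so with BMP4. In HCC1419 it differed by -0.64 in vehicle and by -0.67 in BMP4 over the same interval, with 41 of 41 genes lower in each channel. In SK-BR-3 the vehicle channel differed by 0.07 and the BMP4 channel by -0.19. In ZR-75-30, from 6 h, the values were -0.33 and -0.42, and in HCC1954 0.09 and 0.08. Levels of single channels contain the differences between the hybridizations, so the ratio is the better determined quantity.

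Further genes of cell division and of DNA synthesis were measured as 2 lists, none of whose genes is among the 41. Of 56 other mitosis genes, 53 had a mean below 0 at 24 h with a median of -0.19, and 4 were called lower by limma (background 0.52%): the centromere protein CENPI (-0.32), the checkpoint protein TRIP13 (-0.33), the sister cohesion factor CDCA5 (-0.45) and the CDC2-inhibiting kinase PKMYT1 (-0.40). By line, their 24 h median was lowest in MDA-MB-361 (-0.69), followed by SK-BR-3 (-0.18), ZR-75-30 (-0.14), HCC1419 (-0.02) and HCC1954 (0.05). These genes were thus lower than the 41 in MDA-MB-361 and higher in ZR-75-30, a difference that was not tested. Of 44 DNA replication genes, 43 had a mean below 0 at 24 h with a median of -0.35, and 6 were called lower (background 0.52%), among them the origin licensing factor CDC6 (-0.59 ± 0.13, SE, adjusted p = 0.0167) and the helicase subunit MCM7 (-0.63 ± 0.16, adjusted p = 0.0390). In MDA-MB-361 the median of the replication genes went from -0.38 on the 12 h array to -1.11 on the last, when that of the 41 mitosis genes was -0.02 and -0.43. From 12 to 24 h on the same slide of this line, the replication genes differed by 0.42 in vehicle and by -0.35 in BMP4, whereas the mitosis genes were lower in both channels.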

How the data were processed

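Gene expression was measured on 2-colour oligonucleotide arrays, 1 array for each of 5 lines and 6 time points, and every array was grouped by line and time from its labels. Per the file headers, spot intensities and their local background were extracted with Agilent Feature Extraction 9.5.1.1, with probe positions on hg18. The deposited log10 ratios of red over green are those of the same software. The authors' deposited value matrix holds log2 ratios with a median of 0 on every array. They follow the log2 ratios of the software's processed red and green signals (r of at least 0.9998 per array). The p-values of the software were not used.

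From the mean and background intensities, control spots (1639 of 45015) were left out after background correction with normexp (offset 50), and log2 ratios were normalized within each array by loess. Spots of a probe were averaged, which gave 41000 probes with 1146 missing values. Models were fitted with limma 3.58.1 in R 4.3.3 (lmFit and eBayes, 2-sided) and p-values were adjusted over all probes tested. RNA was pooled before hybridization, so p-values do not measure the spread between cultures of a line. Without a block they rest on the spread between lines, pooled over the 6 time points, with the arrays of a line taken as independent. In the late against early comparison they rest on the spread between neighbouring time points, pooled over the 5 lines, and the number of arrays limits the precision. With the line as a block, steady differences between lines are removed and the error is again shared by the time points. The SE of CDC2 at the last time point was then 0.099, the same as at an earlier time point. Its value in MDA-MB-361 nonetheless lay far from the other lines there (-1.12).

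Arrays of a line are paired, since they come from the same cells. The mean correlation of their deviations was 0.23 over 75 pairs, of which 44 were over 0.1, and -0.06 between arrays of different lines. The models were tested on simulated data: of 100 probes lowered by 0.5 on the log2 scale, 85% were recovered at 24 h against 0, 62% at 24 h against 30 min and 29% late against early in ZR-75-30. Of the probes left unchanged, 8, 12 and 9 were called in the same order. The noise was independent between arrays with 1 SD per probe, and the shift was equal on every array that received it. Real arrays of a line correlate and arrays differ in spread, so these rates need not hold for the measured data. Alternatives covered background correction, scaling, the software's ratios, the deposited matrix, the choice of probe, array weights, variance prior, blocks, baseline and left-out lines or time points.

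The 41 genes, the other lists and the tests were chosen with earlier results of these data known. Genes were named by rule as the 8 lowest and 5 highest in 24 h against 30 min, a fixed set of 11 (CCNB1, CDC2, PLK1, AURKB, BUB1, CENPA, KIF11, TOP2A, MKI67, BIRC5 and FOXM1), and the 3 lowest late against early in lines with a call. Other genes were named after their values were seen.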

Additional observations from a re-analysis of the deposited data

Results flagged for a closer look

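CDC2 at 24 h lay far from the other lines in MDA-MB-361, at -1.12, where its gap to the nearest line was 0.75 of the whole range over the 5 lines. KIF20A at 24 h lay far from the other lines in ZR-75-30, at -0.67, with a gap of 0.86 of the range. These were the 2 found among 6 medians of the mitosis genes and 26 named genes, and chance gives about 1 in 20 groups.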

How the results depend on the processing

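Counts are of the 41 genes called lower, and differences are log2 values at 24 h minus 30 min. At 24 h against 0, the 1 called gene became 3 with no background correction, 0 with 1 factor per array, 2 with the software's ratios, 3 with array weights, 0 with a trended and robust variance prior, 9 with the replicate block (the cell line), and 0 to 1 when each line was left out. At 30 min array weights called 1 and at 1 h the replicate block called 1, against 0. For the 5 called in ZR-75-30, 1 factor per array gave 0, the deposited matrix gave 2, array weights 0 and the variance prior 3, and leaving out each time point gave 1 to 7. Leaving out each time point gave 0 to 3 in MDA-MB-361 and 0 to 1 in SK-BR-3. Without the 3 arrays of widest spread, an alternative chosen after seeing the data, as was the slide block, 8 were called at 24 h and 0 in ZR-75-30. With 1 factor per array the medians at 24 h were 0.70 in HCC1419, 0.16 in ZR-75-30 and -0.47 in SK-BR-3, and the differences turned for CCNB1 (0.21), CDC2 (0.14), CENPA (0.089), FOXM1 (0.11), KIF2C (0.044), PLK1 (0.30) and PTTG1 (0.35). CCNB2 turned with no background correction (-0.00084), the software's ratios (-0.026), the deposited matrix (-0.0053), the 30 min and 1 h baseline (-0.012), scan day (-0.015) and slide (-0.12), and HMMR with no background correction (-0.00013), the software's ratios (-0.049), the deposited matrix (-0.029), scan day (-0.16) and slide (-0.015). CASC5 turned with the software's ratios (-0.11), the deposited matrix (-0.094) and slide (-0.039), CKS2 with that baseline (-0.0042) and slide (-0.0073), and PLK1 with scan day (0.074). Leaving out each line gave -0.035 to 0.038 for CCNB2, -0.26 to 0.052 for CDC2, -0.092 to 0.071 for CKS2, -0.15 to 0.13 for HMMR, -0.12 to 0.013 for PLK1 and -0.054 to 0.015 for PTTG1. The cause of these changes was not tested.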
